A study of Mus musculus with 6 samples.

Results

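Spi1, Cebpa, Cebpd, Cebpe, Gfi1 and Irf8 encode transcription factors of the granulocyte and monocyte lineages. They were taken by name, 6 of the 49671 genes in the table of counts, and all 6 passed the filter on low counts. RNA was sequenced from LSK cells of BALB/c mice, a marrow fraction sorted for absence of lineage markers and presence of Sca-1 and Kit, which holds stem cells and multipotent progenitors. In both groups the marrow cells carried a retrovirus with GFP and a hairpin, which was aimed at Cxxc5 in shCxxc5 and was non-targeting in shCtrl, and GFP-positive LSK cells were sorted and pooled over several animals for each library. There were 3 libraries per group, numbered 2, 3 and 4 in both, with 15002414 to 27754019 counts each. The labels give no age of the mice, no other allele and no time after infection, and do not say what the replicate numbers stand for. The p-values therefore reflect only how far these libraries scatter, which may be technical.

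PU.1, the product of Spi1, is an ETS factor needed for normal myeloid development and for early lymphoid progenitors. Its dose helps to set the choice between fates. C/EBPα, the product of Cebpa, drives multipotent progenitors into the granulocyte and monocyte path, C/EBPε, the product of Cebpe, acts later, in the making of secondary granules, and C/EBPδ, the product of Cebpd, is an inducible member of the same bZIP family. GFI1 is a zinc finger repressor that favours neutrophils and restrains monocyte genes, and IRF8 is an interferon regulatory factor that favours monocytes and dendritic cells over neutrophils. LSK cells are known to hold low levels of several of these transcripts before commitment.

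The genes do not overlap each other. On GRCm38, Spi1 (ENSMUSG00000002111) lies on chromosome 2 from 91082390 to 91115756 on the plus strand, and Cebpa (ENSMUSG00000034957), a gene with 1 exon, on chromosome 7 from 35119293 to 35121928 on the plus strand. Cebpd (ENSMUSG00000071637), also with 1 exon, lies on chromosome 16 from 15887286 to 15891031 on the plus strand, and Cebpe (ENSMUSG00000052435) on chromosome 14 from 54710360 to 54712174 on the minus strand. Gfi1 (ENSMUSG00000029275) lies on chromosome 5 from 107716657 to 107726036 on the minus strand, and Irf8 (ENSMUSG00000041515) on chromosome 8 from 120736358 to 120756694 on the plus strand. None of their exons overlap a gene on the same strand. Exons of Cebpd share 562 bases with the antisense gene Spidr, those of Gfi1 share 101 with A430072P03Rik and those of Cebpa share 51 with Gm45091. Of the 50-base words of Cebpd transcripts, 514 of 3741 also occur in another gene's transcripts on either strand, against 33 of 3134 for Gfi1, 3 of 2636 for Cebpa and 0 for Spi1, Cebpe and Irf8.

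The RefSeq promoter table (GRCm38.p6) held 3 of the 6 genes, Cebpa, Gfi1 and Irf8, with 1, 2 and 2 start sites. CpG is the base pair step that CXXC zinc fingers such as that of Cxxc5 bind when it is unmethylated. Such binding was not tested here. Sequences of these 3 genes are shown because the table held none of the others. Each runs 5′ to 3′ on the gene's own strand up to the base before the start, with CpG pairs in capitals. For Gfi1 the stretch stops where an exon of a longer Gfi1 transcript begins. The windows are chr7:35119043-35119292 (plus strand) for Cebpa, chr5:107725806-107725954 (minus strand) for Gfi1 and chr8:120736108-120736357 (plus strand) for Irf8.
Cebpa: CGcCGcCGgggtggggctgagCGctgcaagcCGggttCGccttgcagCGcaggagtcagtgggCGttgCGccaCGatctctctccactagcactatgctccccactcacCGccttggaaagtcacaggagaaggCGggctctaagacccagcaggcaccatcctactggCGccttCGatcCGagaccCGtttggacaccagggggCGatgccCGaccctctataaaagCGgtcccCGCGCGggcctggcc
Gfi1: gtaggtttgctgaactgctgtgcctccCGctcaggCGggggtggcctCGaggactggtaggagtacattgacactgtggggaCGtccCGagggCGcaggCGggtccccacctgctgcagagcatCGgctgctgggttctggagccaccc
Irf8: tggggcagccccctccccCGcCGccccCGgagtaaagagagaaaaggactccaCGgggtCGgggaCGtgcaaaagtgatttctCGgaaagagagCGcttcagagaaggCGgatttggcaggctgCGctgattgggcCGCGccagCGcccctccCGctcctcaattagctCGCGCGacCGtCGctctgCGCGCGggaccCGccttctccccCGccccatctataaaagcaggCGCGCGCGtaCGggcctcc
The 250 bases before the start held 22 CpG pairs in Cebpa, 13 at this Gfi1 start and 29 at this Irf8 start, against a median of 6 over 32841 promoters of the table. Of all promoters, 85.2%, 68.5% and 93.2% had fewer CpG pairs than these 3, in that order. The other start sites in the table, 1 for Gfi1 and 1 for Irf8, had 9 and 8. Motifs were searched on both strands, as TTGCNNAA for C/EBP, GAGGAAG for PU.1, GAAA repeated after 2 bases for IRF factors, and AAATCA followed after 2 bases by GC for GFI1. They are found in 9.57%, 10.6%, 2.98% and 0.664% of all windows of this length. The 5 windows held 1 match, so no matches overlapped: ttgctgaa for C/EBP on the gene's strand of Gfi1, from 143 to 136 bases before the start.

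In the 4 libraries numbered 3 and 4, Cebpa and Spi1 stood highest of the 6 per length of exon and Cebpd lowest. Levels per length are given as RPKM (TMM-scaled CPM per kilobase of annotated exon). In these 4 libraries Cebpa had 49.6 to 54.1 RPKM, Spi1 43.1 to 46.4, Gfi1 16.1 to 17.7, Irf8 6.70 to 7.59, Cebpe 4.28 to 6.50 and Cebpd 2.24 to 3.04. Those ranges did not overlap, although Cebpa and Spi1 were close, with a ratio of Cebpa to Spi1 of 1.15 and 1.18 in shCtrl and 1.22 and 1.16 in shCxxc5. The order differed in replicate 2. In shCtrl replicate 2 Spi1 (24.9 RPKM) stood above Cebpa (21.6), and Cebpe (9.84) above Irf8 (4.10) and close to Gfi1 (10.2). In shCxxc5 replicate 2 the order was Cebpa (73.8 RPKM), Cebpe (51.8), Gfi1 (47.8), Spi1 (34.4), Cebpd (5.73) and Irf8 (3.67). Over all 6 libraries the ranges of neighbours in the order of replicates 3 and 4 overlapped, except for Gfi1 (10.2 to 47.8 RPKM) and Irf8 (3.67 to 7.59 RPKM).

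**Figure D1:**
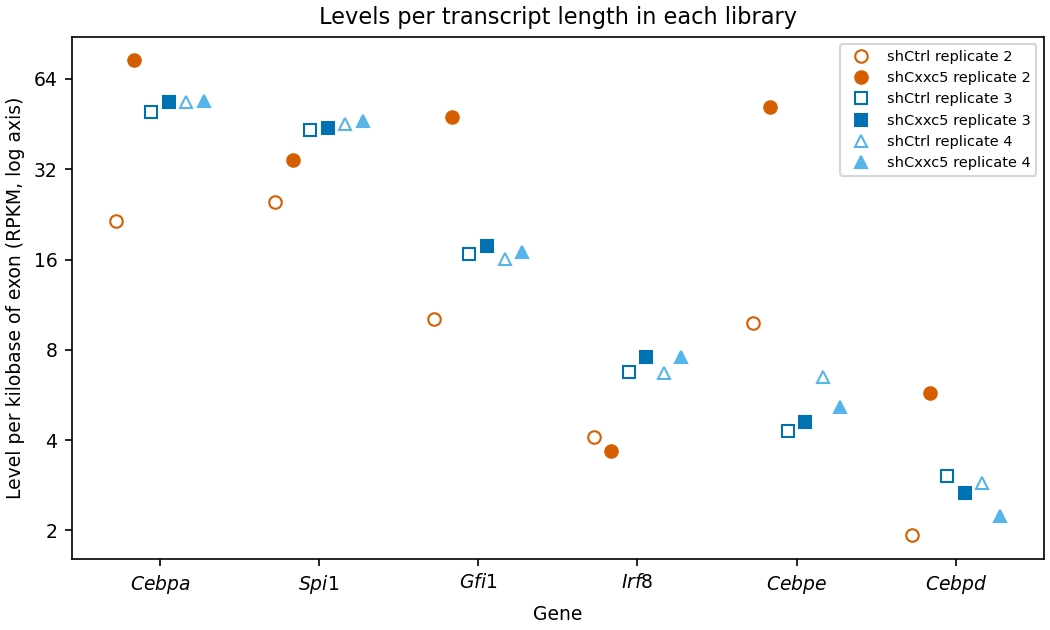
Level per kilobase of exon (RPKM, log axis) of the 6 genes, ordered by their mean in replicates 3 and 4, with open symbols for shCtrl and filled symbols for shCxxc5 libraries. The blue symbols of replicates 3 and 4 lie close together for each gene, while the orange symbols of replicate 2 lie apart, with Cebpe at 51.8 RPKM in shCxxc5 replicate 2.

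Both replicate 2 libraries stood apart from the other 4 across the whole table, so the values of the 6 factors are given with and without them. Cxxc5 itself was lower in each shCxxc5 library, at 82.2, 59.9 and 57.9 CPM in shCtrl replicates 2, 3 and 4 and 6.74, 17.4 and 17.9 CPM in shCxxc5 (exact two-sided permutation test, p = 0.1, the smallest that 3 against 3 allows). The libraries numbered 2 were separated from the rest along the leading principal component (67.6% of variance). The transcript of Sca-1, Ly6a, lay at 46.4 and 33.1 CPM in replicate 2 and at 703 to 804 CPM in the other libraries, while Kit lay at 82.4 to 110 CPM in all 6. Within the groups, replicates 3 and 4 were close but not copies: their counts differed by 2.34 (shCtrl) and 2.28 (shCxxc5) times the variance that counting gives, against 94.4 to 160 times between replicate 2 and either of them.

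In the pair of libraries numbered 2, Cebpa, Cebpd, Cebpe and Gfi1 were 2.97-fold to 5.26-fold higher with the Cxxc5 hairpin, Spi1 was 1.38-fold higher and Irf8 was slightly lower. In the pairs numbered 3 and 4 none of the 6 differed by more than 1.28-fold in either direction. A log2 ratio over 1 was reached by 4 of 6 factors in pair 2, where 4.86% of all tested genes reached it, and by 0 of 6 in pairs 3 and 4, where 0.437% and 1.45% did. Over all 6 libraries 0 of 6 passed edgeR's quasi-likelihood test, in a comparison in which 0 of 14637 genes passed (0%). The targeted gene Cxxc5 did not pass this test either, at a log2 fold change of -2.25 (SE 0.40) and an adjusted p of 0.940. At an unadjusted p under 0.05 the counts were 0 of 6 factors and 575 genes (3.93%). DESeq2 called 0 of 6 and 19 genes (0.13%), with 1 factor, Gfi1, among the 4.29% of genes at an unadjusted p under 0.05, and 147 genes (1%) and 0 factors with the replicate number as a block, and limma-voom called 0 genes. Higher in all 3 pairs were 3 of 6, Spi1, Cebpa and Gfi1, against 19% of all genes. For Cebpa this rested on a log2 ratio of 0.0083 in pair 4, which turned to -0.010 with scaling by library totals only. The difference between the pairs was not tested.

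Gfi1, the repressor that favours neutrophils, lay at 32.4, 53.1 and 51.4 CPM in shCtrl replicates 2, 3 and 4 and at 152, 56.4 and 54.0 CPM in shCxxc5. Each shCxxc5 library was above each shCtrl library, by little outside replicate 2, and Gfi1 was the only one of the 6 whose groups did not overlap (6.72% of all tested genes had such a separation upward). Its ratio was 4.70 in pair 2, with a 95% interval of 4.36 to 5.09 (exact, counting error only, as for all ratios here), 1.06 (0.98 to 1.15) in pair 3 and 1.05 (0.95 to 1.16) in pair 4. Among all tested genes, 0.847% had a larger ratio than Gfi1 in pair 2, and 31.3% and 35.9% had one in pairs 3 and 4. Group means were 45.6 ± 11.5 CPM in shCtrl and 87.6 ± 56.1 CPM in shCxxc5 (SD, n = 3 each), so the spread within shCxxc5 exceeded the difference. edgeR's log2 fold change was 0.94 (SE 0.46), and its p after Benjamini-Hochberg adjustment was 0.940. Without shCxxc5 replicate 2 the log2 fold change was 0.28.

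Cebpe, the factor of secondary granules, lay at 12.2, 5.31 and 8.07 CPM in shCtrl and at 64.3, 5.71 and 6.42 CPM in shCxxc5, in the same order of libraries. The groups overlapped, and the replicate 2 library was the highest of its group on both sides. In shCxxc5 replicate 2 stood 10.6-fold above the mean of replicates 3 and 4, and in shCtrl 1.83-fold. The ratio of shCxxc5 to shCtrl was 5.26 (4.65 to 5.98) in pair 2, 1.08 (0.83 to 1.39) in pair 3 and 0.80 (0.61 to 1.04) in pair 4, on only 104 to 128 counts per library in the last 2 pairs. edgeR gave a log2 fold change of 1.58 (SE 1.01), adjusted p of 0.940.

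Cebpa, the driver of the granulocyte and monocyte path, lay at 56.9, 131 and 142 CPM in shCtrl and 194, 142 and 142 CPM in shCxxc5. Here both replicate 2 libraries left the level of the others, in opposite directions: shCtrl replicate 2 stood 2.39-fold below the mean of replicates 3 and 4 of its group and shCxxc5 replicate 2 stood 1.37-fold above. The ratio was 3.42 (3.22 to 3.63) in pair 2, 1.08 (1.03 to 1.14) in pair 3 and 1.01 (0.95 to 1.07) in pair 4. edgeR gave 0.54 (SE 0.35), adjusted p of 0.940. Without shCtrl replicate 2 it was 0.23.

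Cebpd, the inducible family member, lay at 7.23, 11.4 and 10.8 CPM in shCtrl and 21.5, 9.99 and 8.40 CPM in shCxxc5. It was higher with the hairpin in pair 2 and lower in both other pairs, with ratios of 2.97 (2.5 to 3.54), 0.88 (0.73 to 1.05) and 0.78 (0.62 to 0.99). Its antisense neighbour Spidr, whose reads could be mixed with those of Cebpd if strand was not used in counting, lay at 71.6 to 87.2 CPM in the 6 libraries and was lower with the hairpin in all 3 pairs, by a log2 ratio of -0.14, -0.11 and -0.21. edgeR gave 0.445 (SE 0.40) for Cebpd, adjusted p of 0.940.

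Spi1, whose product PU.1 is needed for normal myeloid development, lay at 67.2, 116 and 122 CPM in shCtrl and 92.7, 118 and 125 CPM in shCxxc5. Both replicate 2 libraries were below the other 4. The ratio was 1.38 (1.3 to 1.47) in pair 2, which 13.9% of tested genes exceeded, 1.02 (0.96 to 1.07) in pair 3 and 1.02 (0.96 to 1.09) in pair 4. edgeR gave 0.14 (SE 0.25), adjusted p of 0.963.

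Irf8, the factor of monocytes and dendritic cells, lay at 28.9, 47.6 and 47.3 CPM in shCtrl and 25.9, 53.5 and 53.3 CPM in shCxxc5. Replicate 2 was low in both groups, and the pairs differed in direction, with ratios of 0.90 (0.807 to 0.996) in pair 2, 1.13 (1.04 to 1.22) in pair 3 and 1.13 (1.02 to 1.25) in pair 4. edgeR gave 0.10 (SE 0.34) over all libraries, adjusted p of 0.982.

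**Figure D2:**
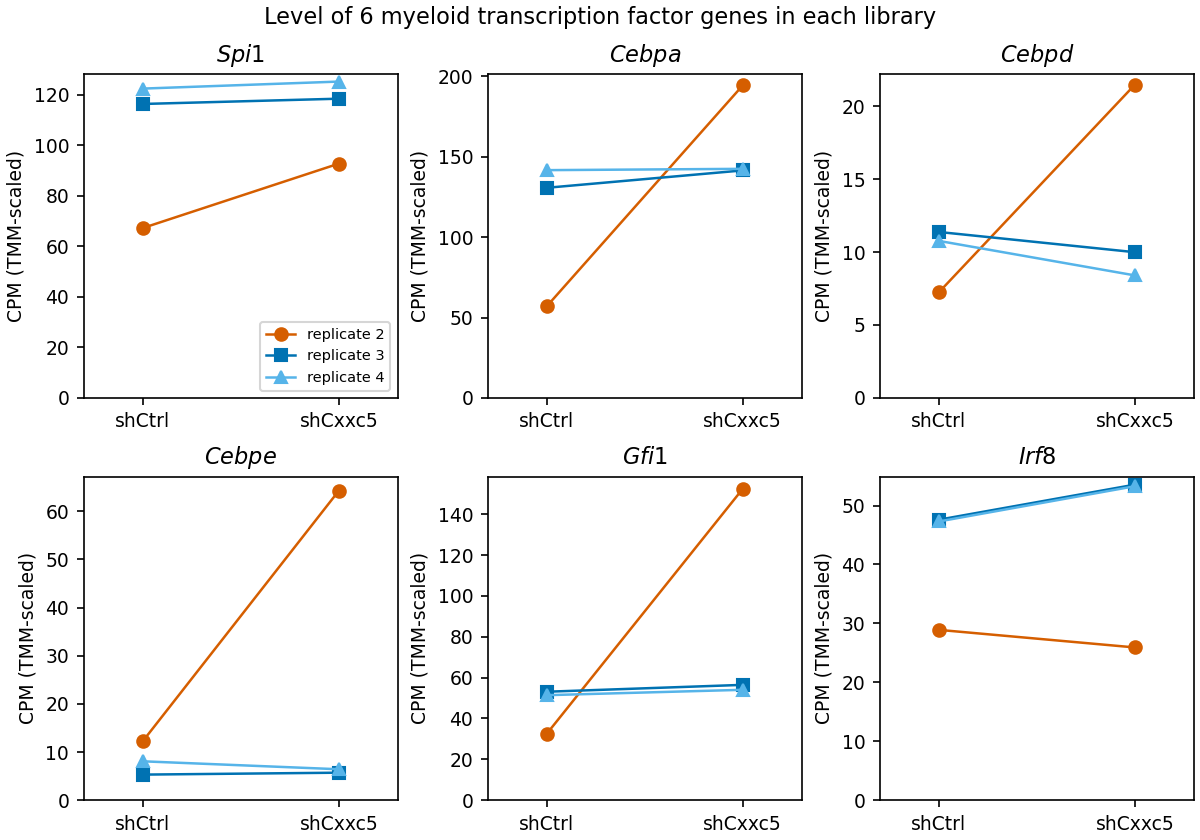
CPM (TMM-scaled) of each gene in each library, with lines joining libraries of equal replicate number. The orange lines of replicate 2 climb steeply for Cebpa, Cebpd, Cebpe and Gfi1, and the blue lines of replicates 3 and 4 are nearly flat.

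**Figure D3:**
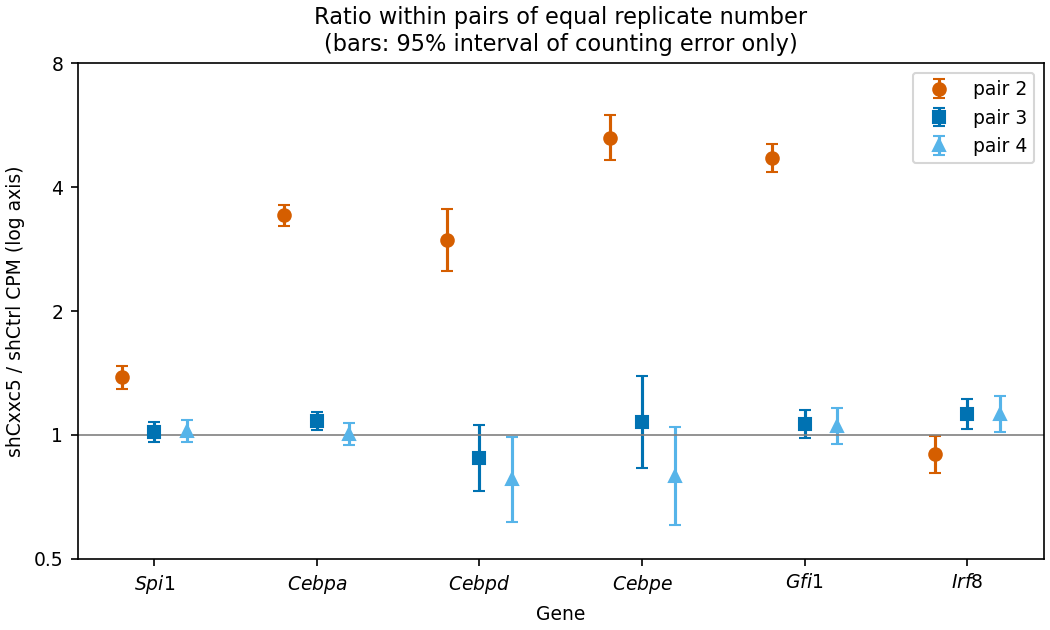
Ratio of shCxxc5 to shCtrl CPM within each pair (log axis), with 95% intervals of counting error only. In pair 2 the points run from 0.90 for Irf8 to 5.26 for Cebpe, and in pairs 3 and 4 from 0.78 for Cebpd to 1.13 for Irf8.

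Ratios between 2 of the genes within 1 library do not depend on scaling. Per length, Gfi1 stood 2.48, 2.47 and 2.41 times above Irf8 in shCtrl replicates 2, 3 and 4 and 2.33 and 2.24 times above it in shCxxc5 replicates 3 and 4, but 13 times in shCxxc5 replicate 2. The ratio of Cebpa to Spi1 was 2.14 in that library and 0.87 to 1.22 in the other 5. The ratio of Cebpe to Cebpa differed in both replicate 2 libraries, at 0.46 in shCtrl and 0.70 in shCxxc5, against 0.086 to 0.12 in the other 4. So the ratio of Gfi1 to Irf8 stood apart in 1 library and that of Cebpe to Cebpa in 2.

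Other transcripts of these lineages and of further cell types moved with the replicate 2 pair. In bulk RNA, fewer cells of a type and less RNA per cell cannot be told apart. The summed level of 11 genes for primary granule proteins and other C/EBPα targets was 6049 CPM in shCxxc5 replicate 2, 863 CPM in shCtrl replicate 2 and 1094 to 1300 CPM in the other 4 libraries. Among them myeloperoxidase (Mpo) lay at 2914 CPM there, against 360.5 CPM in shCtrl replicate 2 and 346 to 391 CPM elsewhere. Summed markers of mast cells, basophils and eosinophils (10 of 10 tested) lay at 1861 CPM in shCxxc5 replicate 2, 349 in shCtrl replicate 2 and 324 to 357 elsewhere. Summed megakaryocyte and platelet markers (10 of 10 tested) went the other way, at 1635 CPM in shCxxc5 replicate 2, 6910 in shCtrl replicate 2 and 300.2 to 487 elsewhere. Summed erythroid markers (8 of 10 tested) lay at 1047, 434 and 429 to 535 CPM in the same order. Summed B and T lymphocyte markers (3 of 12 tested, with Cd3e at 0 in all libraries) lay at 33.9 to 69.6 CPM in all 6. In pairs 3 and 4 the median log2 ratios were 0.31 and -0.20 for the mast cell list, -0.50 and -0.59 for the erythroid list and -0.66 and -0.70 for the megakaryocyte list. The erythroid sum went the other way from its median, from 429 to 535 CPM in pair 3 and from 450 to 509 CPM in pair 4. The part of these other cell types in the values of the 6 factors was not tested.

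Without the replicate 2 libraries, Irf8 rose slightly and the other 5 factors did not pass. In replicates 3 and 4 alone (2 libraries per group, 14193 genes), edgeR called 2833 genes (20%), 1555 of them higher (11%) and 1278 lower (9%), so 1 factor called of 6 is close to the share of all genes. Scaled by library totals only, the split was 1120 higher and 1606 lower. The log2 fold change of Irf8 was 0.18 (SE 0.06) with an adjusted p of 0.0400, from 47.6 and 47.3 CPM in shCtrl to 53.5 and 53.3 CPM in shCxxc5, and its groups did not overlap there. Nor did those of Gfi1 (higher) and Cebpd (lower), which makes 3 of 6 separated against 57.2% of all genes, and 2 of 6 higher against 27.8%. This call was lost without any 1 of the 4 libraries (adjusted p of 0.102 to 0.193), in DESeq2 (0.218) and under 2 of 3 other scalings (0.0694 and 0.0880), and without the filter on low counts (0.0606). Cebpd stood at -0.25 (SE 0.13, adjusted p of 0.162), Cebpe at -0.10 (SE 0.18, 0.752), Gfi1 at 0.086 (SE 0.060, 0.353), Cebpa at 0.070 (SE 0.044, 0.298) and Spi1 at 0.035 (SE 0.046, 0.664).

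**Figure D4:**
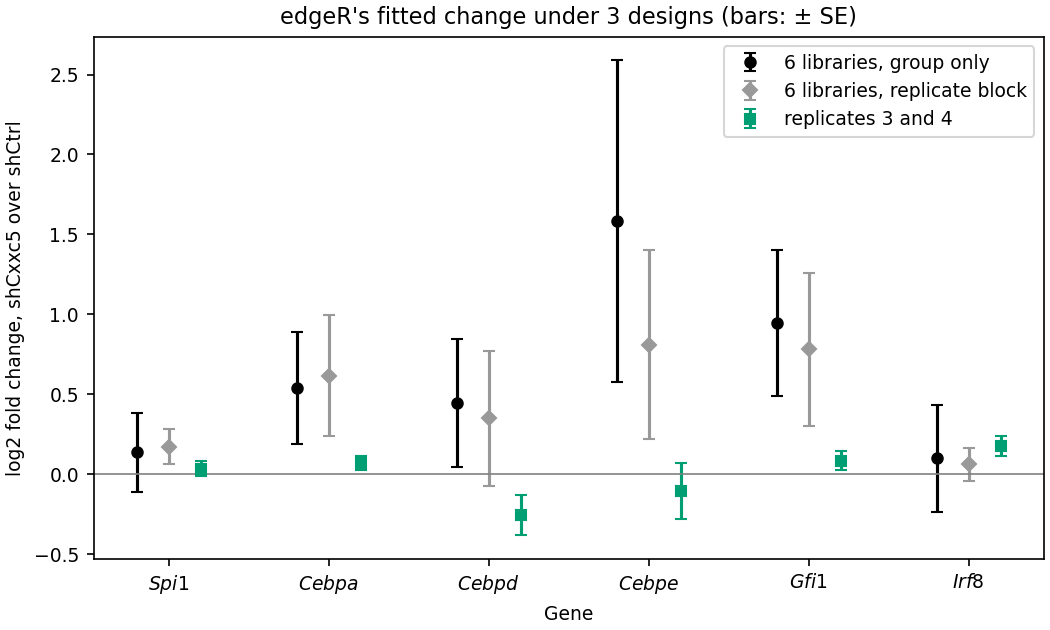
edgeR's log2 fold change of shCxxc5 over shCtrl with its standard error, over 6 libraries with the group only, over 6 libraries with the replicate number as a block, and in replicates 3 and 4. Over 6 libraries the bars of Cebpe reach 1.01 to either side with the group only and 0.59 with the block. The estimates in replicates 3 and 4 lie between -0.25 and 0.18.

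Several related factors of the same families fell in replicates 3 and 4. Of 15 other genes listed with the C/EBP, IRF and GFI families (with 2 further ETS factors among them), 0 passed edgeR's test over all 6 libraries. In replicates 3 and 4, where 9% of all tested genes fell and 11% rose, 5 of the 15 fell and 1 rose. Those that fell were Cebpb (-0.55, SE 0.05), which drives granulocyte production under stress, Cebpg (-0.31, SE 0.04), a C/EBP partner without its own activation domain, Ddit3 (-1.43, SE 0.13), the stress-induced C/EBP protein CHOP, Gfi1b (-0.23, SE 0.07), the GFI1 paralog of erythroid and megakaryocyte cells, and Irf9 (-0.12, SE 0.04), the DNA-binding part of the interferon complex ISGF3. The 1 that rose was Cebpz (0.165, SE 0.04), which was listed by its name only. Cebpb lay at 114 and 132 CPM in shCtrl replicates 3 and 4 and 83.6 and 83.7 CPM in shCxxc5, but at 60.9 and 74.0 CPM in the replicate 2 pair, so there it was higher with the hairpin. Cebpg and Ddit3 were lower with the hairpin in all 3 pairs, as 10 of the 15 were (22.4% of all tested genes were lower in all 3). Over all 6 libraries, Cebpg stood at -0.26 (SE 0.13), Ddit3 at -0.995 (SE 0.49) and the ETS factor Spib at -0.44 (SE 0.23), each with an adjusted p of 0.940 in edgeR. DESeq2 with the replicate number as a block called Ddit3 over 6 libraries (-1.14, SE 0.27, adjusted p of 0.00395), 1 of the 15. Spib stood at -0.28 (SE 0.22) in replicates 3 and 4. Cebpb, Gfi1b, Irf9 and Cebpz were named after their values were seen.

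Among 19 partner and upstream factors, 0 passed edgeR's test over 6 libraries, and 5 fell and 1 rose in replicates 3 and 4. Of all genes tested there, 9% fell and 11% rose. Cbfb, the partner of RUNX1, rose there by 0.21 (SE 0.04), and stood at 0.32 (SE 0.20) over all libraries. Egr1, an immediate-early factor that favours monocytes, fell there by 0.59 on the log2 scale (SE 0.08) and stood at -0.82 (SE 0.29) over all libraries. Trib1 and Trib2, pseudokinases that send C/EBPα to degradation, fell there by 0.57 and 0.53 on the log2 scale (SE 0.18 and 0.15), and in pair 2 Trib2 lay at 43.0 CPM in shCtrl and 82.2 CPM in shCxxc5. Jun (-0.25, SE 0.09, edgeR adjusted p of 0.0433) and Gata1 (-0.55, SE 0.13) were the other 2 that fell. DESeq2 with the replicate number as a block called 2 of the 19 over 6 libraries, Egr1 (-0.76, SE 0.18, adjusted p of 0.00598) and Gata1 (-0.63, SE 0.16, adjusted p of 0.0134). Id2, an inhibitor of E-proteins, stood at 0.17 (SE 0.09) over all libraries and did not pass in either comparison. Runx1 lay at 181 and 109 CPM in replicate 2 of shCtrl and shCxxc5 and at 67.3 to 75.3 CPM in the other 4, and did not pass in either comparison. Trib1, Trib2, Jun, Gata1 and Runx1 were named after their values were seen.

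Genes listed as targets of the factors or markers of their lineages did not follow a single pattern, and no list was made for C/EBPδ. Of 11 primary granule and C/EBPα target genes, with a median log2 ratio of 2.62 in pair 2 against -0.04 for all tested genes, 8 exceeded a log2 ratio of 1 there and 0 did in pairs 3 and 4 (medians of 0.04 and -0.02). In replicates 3 and 4, 4 rose, Prtn3 (proteinase 3) by 0.53 (SE 0.03), Ms4a3 by 0.27 (SE 0.06), Mpo by 0.16 (SE 0.03) and Hp (haptoglobin) by 0.16 (SE 0.05), and Cst7 fell by 0.24 on the log2 scale (SE 0.06). Of all genes tested there, 11% rose and 9% fell. Of 12 genes listed for C/EBPε and secondary granules, 0 exceeded a log2 ratio of 1 in pair 2, where their median was 0.03. Cebpe was 5.26-fold higher in that pair. These 12 genes had log2 ratios there from -0.95 (Mmp9) to 0.92 (S100a8). In replicates 3 and 4, 1 of them rose, Ltf (lactoferrin), and 4 fell, Lcn2, Ngp, Chil3 and Cd177. Of these, Ngp (edgeR adjusted p of 0.04998) and Chil3 (0.0471) lay close to the threshold. The log2 ratio of Ngp was -0.34 in pair 3 and -0.02 in pair 4. Over 6 libraries Camp stood at 0.33 (SE 0.30), Chil3 at -0.31 (SE 0.34) and Cd177 at -0.29 (SE 0.20). Camp stood at 0.23 (SE 0.11) in replicates 3 and 4.

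In replicates 3 and 4, where 11% of all tested genes rose and 9% fell, 0 of 15 PU.1 target genes rose and 5 fell. They were the NADPH oxidase genes Cybb (-0.52, SE 0.05) and Ncf1 (-0.16, SE 0.03), the receptors Csf3r (-0.25, SE 0.05) and Csf1r (-0.24, SE 0.07) and the lysosomal protein gene Laptm5 (-0.15, SE 0.04). Over 6 libraries Csf1r (-0.42, SE 0.22), the integrin gene Itgam (-0.44, SE 0.22) and Laptm5 (-0.37, SE 0.17) were lower in each shCxxc5 library than in any shCtrl library, with adjusted p of 0.940 each in edgeR. Itgam stood at -0.17 (SE 0.10) in replicates 3 and 4. Over all 6 libraries, 3 of the 15 were separated downward in this way and 1 upward, against 6.35% and 6.72% of all tested genes. Spi1 itself was not lower with the hairpin in any pair.

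Of 14 monocyte and dendritic cell genes linked to IRF8, 13 were tested in replicates 3 and 4 and 12 over all libraries. There 1 rose in replicates 3 and 4, the chemokine receptor Ccr2 (0.17, SE 0.04). The 4 that fell were Cx3cr1 (-0.60, SE 0.10), Cd14 (-0.32, SE 0.10), Ly6c2 (-0.31, SE 0.11, edgeR adjusted p of 0.0435) and lysozyme 2 (Lyz2, -0.19, SE 0.05). Among all genes tested in those libraries, 11% rose and 9% fell. Over 6 libraries Batf3, a dendritic cell factor, stood at 0.45 (SE 0.35), Ly6c2 at 0.40 (SE 0.43) and Lyz2 at -0.19 (SE 0.27). Batf3 stood at 0.86 (SE 0.33, edgeR adjusted p of 0.0696) in replicates 3 and 4. The 8 genes known to be repressed by GFI1 had a median log2 ratio of -0.57 in pair 2 and of -0.04 and -0.02 in pairs 3 and 4. In pair 2, 2 of the 8 were under -1, against 5.63% of all tested genes. Meis1, a homeobox gene of stem cells, lay at 214 and 146 CPM in replicate 2 of shCtrl and shCxxc5 and at 122 to 124 CPM in the other 4 libraries. Cdkn1a, a cell cycle inhibitor, was lower in each shCxxc5 library, at -0.43 (SE 0.12) over all 6, and fell in replicates 3 and 4 by 0.37 on the log2 scale (SE 0.06). In replicates 3 and 4 Ets1 also fell (-0.26, SE 0.09, edgeR adjusted p of 0.0465) and Id3 rose (0.24, SE 0.07). DESeq2 with the replicate number as a block called 1 of these 8 over 6 libraries. Over 6 libraries 0 genes of any of these lists passed edgeR's test. Genes called in replicates 3 and 4 that were not among the 3 of smallest p of their list were named after their values were seen. For all lists, calls in replicates 3 and 4 are those of edgeR's main fit, and are not given gene by gene under the other settings.

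**Figure D5:**
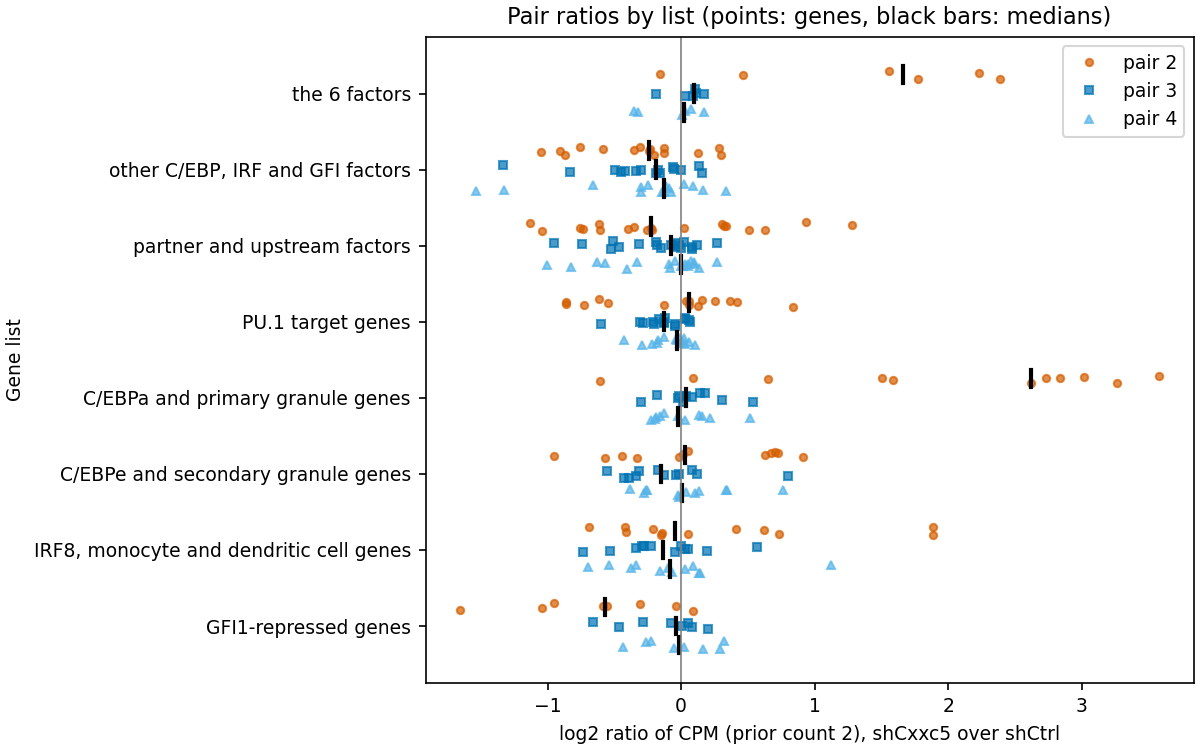
Log2 ratio of shCxxc5 to shCtrl CPM (prior count of 2) for each tested gene of a list in each pair, with black bars at the medians. In pair 2 the 6 factors (median 1.67) and the primary granule genes (2.62) lie to the right of the other lists drawn, whose medians run from -0.57 to 0.06, and in pairs 3 and 4 the medians drawn lie between -0.19 and 0.10. Lists of other cell types are not drawn, and in pair 2 their medians were 2.59 (mast cell, basophil and eosinophil), 1.83 (erythroid), -2.29 (megakaryocyte and platelet) and -0.05 (B and T lymphocyte).

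Genes most like each factor over the 6 libraries were sought among 11045 others by the root mean square difference of log2 CPM, each gene centred on its own mean. The search used all 6 libraries and was not repeated without replicate 2. Gfi1 was most like Clec2i (0.092), Prss57 (0.11) and Kcnj2 (0.15), and only 9 genes lay within 0.2 of it. All 3 were higher in pair 2, by log2 ratios of 2.10, 2.36 and 2.77, which follows from choosing them by likeness to Gfi1. Cebpe had 0 genes within 0.2, and the nearest were Atp7b (0.22), Clec12a (0.23) and Sgms2 (0.25). Cebpa was nearest to Depdc1a (0.096), H2afz (0.099) and Nuak2 (0.11), with 29 genes within 0.2, and Cebpd to Tph1 (0.090), Dio2 (0.090) and Fndc3b (0.11), with 28. Irf8 and Spi1 had 430 and 1642 genes within 0.2, but they also varied least. The range of log2 CPM over the 6 libraries was 1.04 for Irf8 and 0.90 for Spi1. It was 1.56 for Cebpd, 1.77 for Cebpa, 2.23 for Gfi1 and 3.57 for Cebpe. A fixed limit of 0.2 takes in more genes where a gene varies less, so these counts do not compare how widely the patterns were shared. The nearest to Irf8 were Pard6g (0.052), Phf11c (0.055) and Itgav (0.059), and to Spi1 Tmem70 (0.036), Psma6 (0.037) and Lrfn4 (0.043).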

How the data were processed

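Raw read counts per Ensembl gene were deposited for 6 libraries, each from 20000 to 50000 sorted cells, per the labels' protocols, with a stranded mRNA kit. Runs were single-read or paired-end, and the labels do not say which library had which. Per the submitters' processing notes, STAR 2.5.2b, featureCounts 1.5.1 and DESeq2 were used on GRCm38. Neither the strand setting nor the annotation is given in the sources used here. Symbols came from GENCODE M21 (49326 identifiers matched).

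Group was tested with edgeR 4.0.16 (R 4.3.3) by robust quasi-likelihood after TMM scaling and filterByExpr, with Benjamini-Hochberg adjustment over all 14637 tested genes and a threshold of 0.05. SE is the absolute log2 fold change over the square root of F. CPM is TMM-scaled. Replicates 3 and 4 were also fitted alone. Deviations from group means correlated at 0.670, 0.554 and 0.489 between libraries sharing numbers 2, 3 and 4. Between unlike numbers 3 and 4 the values were 0.475 and 0.489. The check therefore set number 2 apart, but could not tell whether 3 pairs with 3 and 4 with 4. Alternatives were DESeq2 1.42.0, limma-voom (limma 3.58.1), other scalings and filters, the replicate block and leaving out each library. The code was tested on simulated counts.

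Named genes were the 6 factors, Cxxc5, the 3 genes most like each factor (average log2 CPM of at least 1) and, per list of related genes, the 3 of smallest unadjusted p over 6 libraries. The members, lists and comparisons were chosen with earlier results of these data known. A gene that this rule names is not reported here.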

Additional observations from a re-analysis of the deposited data

How the results depend on the processing

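Over 6 libraries, no alternative called any of the 6 factors except the fit of replicates 3 and 4 alone, which called 1 of 6 (Irf8) and 2833 genes. DESeq2 called 19 genes, and 147 with the replicate block. Cxxc5 passed there, at -2.25 and -2.34 on the log2 scale, and at -1.74 in replicates 3 and 4. Replicates 3 and 4 alone gave -0.25 for Cebpd and -0.10 for Cebpe. Leaving out each library in turn gave -0.091 to 0.30 for Spi1, -0.087 to 0.69 for Cebpd, -0.49 to 2.05 for Cebpe, -0.10 to 0.37 for Irf8, 0.23 to 0.77 for Cebpa and 0.28 to 1.19 for Gfi1. The lowest values came without shCtrl replicate 2 for Spi1 (-0.091), Irf8 (-0.10) and Cebpa (0.23), and without shCxxc5 replicate 2 for Cebpd (-0.087), Cebpe (-0.49) and Gfi1 (0.28). Irf8 also changed sign without shCxxc5 replicate 3 (-0.06) or 4 (-0.05). In replicates 3 and 4, DESeq2 called 1353 genes and 0 factors, and 601 and 0 with the replicate block. Upper quartile scaling, library totals only and no filter each left 0 factors. Leaving out each library, with the lone library of a group assumed to vary like the others, gave 1507 to 2043 genes and 0 factors, Spi1 at -0.0094 to 0.079 (-0.0036 without shCxxc5 replicate 4) and Cebpe at -0.42 to 0.19. The cause of these changes was not tested.

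With the replicate number as a block in edgeR, 0 of 14637 genes passed over 6 libraries (1796 at an unadjusted p under 0.05). The log2 fold changes were then 0.17 for Spi1, 0.62 for Cebpa, 0.35 for Cebpd, 0.81 for Cebpe, 0.78 for Gfi1 and 0.06 for Irf8. In replicates 3 and 4 the block gave 3300 genes and 1 factor, Irf8, so it changed no call of a factor. Counting limits Cebpe in replicates 3 and 4 most, at 104 to 128 counts per library.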
